A study of Mus musculus with 5 samples.

Results

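The genes described here are 42 members of the mouse integrated stress response and unfolded protein response, 22 in an ATF4 amino acid arm and 20 in an endoplasmic reticulum (ER) chaperone arm. They were chosen by gene symbol and matched to the gene names of the deposited table, which lists 54699 genes. Each of the 42 symbols was found, and a second locus named Ddit3 held no reads in any library and was left aside. A gene was compared where its FPKM, a read count scaled by gene length and a library factor, was at least 1 in at least 1 library. All 42 members passed this filter, among 12842 genes in all.

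RNA was sequenced from 5 cultures of B16F10, a mouse melanoma cell line, with 1 library per condition. Lentivirus carried Myod1 (the muscle lineage factor), Pparg (the adipocyte lineage factor) or the empty expression vector, and these cells were collected on day 8. In the other experiment lentivirus carried a short hairpin RNA against the histone methyltransferase gene Setdb1 or the empty knockdown vector, and these cells were collected on day 7. All 5 cultures were thus infected cells grown in the same serum-containing medium, no uninfected culture is among the samples used here, and the labels do not say whether the cells were selected or cloned. The empty expression vector culture is called the expression control below and the empty knockdown vector culture the knockdown control. They differ in vector and in day of collection, and these cannot be told apart.

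When eIF2 is phosphorylated by one of its stress-sensing kinases, general translation drops while translation of the Atf4 mRNA increases. ATF4 then drives genes for amino acid uptake, amino acid synthesis and tRNA charging, together with feedback regulators of the stress itself. The unfolded protein response of the ER signals through IRE1 and its target XBP1, through ATF6, and through the eIF2 kinase PERK, and the IRE1 and ATF6 branches induce ER chaperones, disulfide isomerases and degradation factors. Translation of Atf4, splicing of Xbp1 mRNA and cleavage of ATF6 are not measured by gene-level RNA values.

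The DNA elements known for each arm are printed because their shares in the arms can be compared without any expression value. Members and elements were both chosen as known parts of these pathways. A higher share in an arm than over all genes was partly set by that choice and is no independent support. RefSeq promoters (build GRCm38.p6, 250 bases before to 50 bases after a transcript start) were matched for 36 of the 42 members and searched on both strands. The core of the C/EBP-ATF response element, bound by ATF4 with a C/EBP partner, was searched as TGATGNAA. It was found in 6 of 19 genes of the ATF4 arm (31.6%), in 1 of 17 genes of the ER arm (5.88%) and in 1219 of the 27025 genes with a promoter (4.51%). The matches of 4 of the 6 genes follow 5′ to 3′ on the gene's strand, with the motif or its reverse complement in capitals. The match of Trib3 lies after its start and is not printed.
Chac1: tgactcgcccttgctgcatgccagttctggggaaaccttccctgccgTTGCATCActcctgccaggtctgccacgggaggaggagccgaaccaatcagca
Asns: ccacaTGATGAAActtcccgcacgcgtt
Slc7a11: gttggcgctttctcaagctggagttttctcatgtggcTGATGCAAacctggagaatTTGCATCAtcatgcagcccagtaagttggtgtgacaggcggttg
Gars: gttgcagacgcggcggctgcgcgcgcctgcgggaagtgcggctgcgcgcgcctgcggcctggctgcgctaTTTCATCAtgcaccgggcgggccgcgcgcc
These windows lie at chr2:119351002-119351101 (Chac1), chr6:7693210-7693237 (Asns), chr3:50443617-50443716 (Slc7a11, with 2 matches) and chr6:55037901-55038000 (Gars). That of Asns overlaps an annotated exon of the gene and is cut to the site and its flanks.

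The ER stress response element, bound by ATF6 together with NF-Y, was searched as CCAAT, 9 bases of any kind and CCACG. It was found in 7 of 17 genes of the ER arm (41.2%), in 0 of 19 genes of the ATF4 arm and in 37 of 27025 genes (0.137%). The genes were Hspa5, Hsp90b1, Calr, Canx, Dnajc3, Creld2 and Pdia6, and 4 windows follow as examples from the chaperones and isomerases.
Hspa5: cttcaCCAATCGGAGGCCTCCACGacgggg
Hsp90b1: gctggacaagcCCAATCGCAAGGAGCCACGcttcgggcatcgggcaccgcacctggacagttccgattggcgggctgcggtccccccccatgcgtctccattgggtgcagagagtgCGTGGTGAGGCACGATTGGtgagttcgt
Calr: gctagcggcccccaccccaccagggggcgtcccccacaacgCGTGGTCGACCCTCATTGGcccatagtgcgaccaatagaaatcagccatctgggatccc
Pdia6: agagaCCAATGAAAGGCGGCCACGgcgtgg
They lie at chr2:34772020-34772049 (Hspa5), chr10:86705524-86705667 (Hsp90b1, with 2 matches), chr8:84847035-84847134 (Calr) and chr12:17266486-17266515 (Pdia6). Those of Hspa5 and Pdia6 were also cut to the site and its flanks, because the full window overlapped an annotated exon of the gene. The printed Hspa5 site lies inside the annotated span of that gene. The core of the XBP1-bound unfolded protein response element, TGACGTGG, was in no member's promoter and in 193 of 27025 genes (0.714%). It holds CGTGG, the reverse complement of the CCACG of the ER stress response element, so these motifs share letters, while neither contains the other. A match describes letters in this window and is not a measured binding site.

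**Figure D1:**
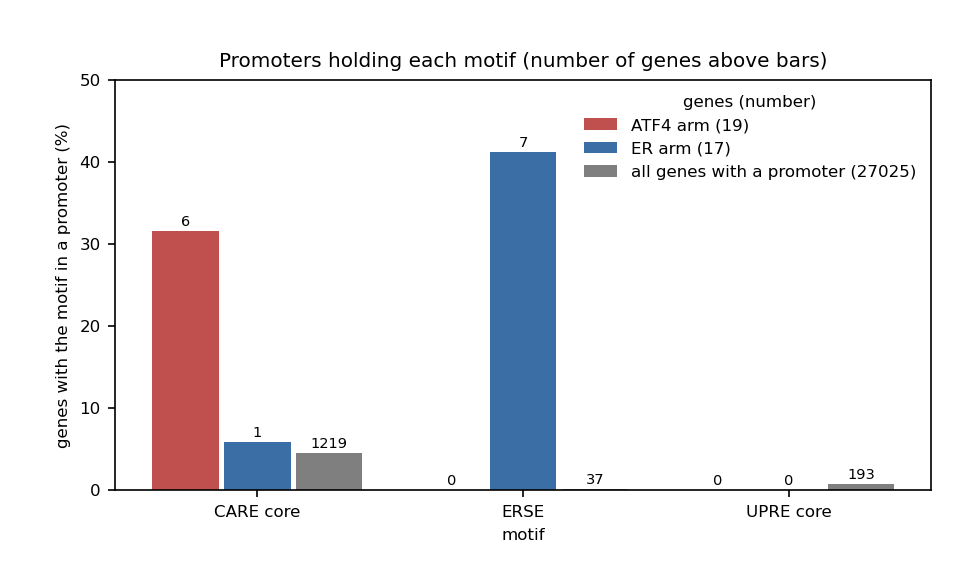
Share of genes, in percent on the vertical axis, with each motif on the horizontal axis in a RefSeq promoter, for the ATF4 arm, the ER arm and all genes with a promoter, with the number of genes above each bar. The C/EBP-ATF core is in 6 of 19 ATF4 arm genes, and the ER stress response element is in 7 of 17 ER arm genes and 0 of 19 ATF4 arm genes.

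The labels were checked on the targeted genes. Myod1 stood at 260.1 FPKM and Pparg at 44.4 FPKM in their own libraries, and each had 0 reads in the other 4. Setdb1 stood at 0.867 FPKM in the knockdown library and at 9.82 FPKM in its control, 8.83% of the control level. Between 16214802 and 18300670 reads per library could be recovered from the FPKM. The 7 melanocyte markers, the defining genes of the cell line, summed to 7583 FPKM in the expression control, 8222 in the knockdown control and 8985 with the Setdb1 hairpin, and to 3110 with Myod1 and 2195 with Pparg. Muscle markers summed to 21093 FPKM with Myod1 and to at most 14.9 elsewhere, and adipocyte markers to 170.6 with Pparg and to at most 2.66 elsewhere, with Lep at 0 throughout. Fibroblast markers summed to at most 2.45 FPKM (Dcn and Lum at 0) and leukocyte markers to between 2.58 and 20.8 (Cd3e at 0). The part of these shifts in cell identity in the results below was not tested, and in bulk RNA fewer cells with a transcript and less of it per cell cannot be told apart.

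The expression control held the highest levels of most members. Of the 42 genes, 26 (61.9%) had their highest FPKM of the 5 libraries there, 10 with the Setdb1 hairpin, 4 with Myod1, 2 in the knockdown control and 0 with Pparg. Among all genes compared, the shares were 15.7% for the expression control, 25.9% for Setdb1 knockdown, 28.7% for Myod1, 17.7% for the knockdown control and 12.0% for Pparg. The share was 17 of 22 (77.3%) in the ATF4 arm and 9 of 20 (45%) in the ER arm, and no member was lowest in that library, where 14.8% of all genes were. The summed FPKM of the ATF4 arm was 2625 in the expression control and between 1370 (Myod1) and 1791 (Setdb1 knockdown) in the other 4. That of the ER arm was 2017 in the expression control and between 1217 (Pparg) and 1631 (knockdown control) elsewhere. As a share of recovered reads the ER arm was lowest with Myod1 (0.368%), beside 0.473% with Pparg and 0.692% in the expression control. The ATF4 arm also varied more from library to library: the ratio of a gene's highest to its lowest FPKM had a median of 2.83 in the ATF4 arm and 1.78 in the ER arm, with the widest range in Slc7a11 (12.8) and the narrowest in Dnajb11 (1.28).

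With 1 library per condition no test between conditions was possible, so a gene is called higher or lower at a 2-fold limit, an absolute log2 ratio of at least 1 on the log2(FPKM + 1) scale, and calls are read beside the share of all genes past the same limit. This scale understates the ratio of low genes. Intervals printed with FPKM ratios are at 95% and cover counting error only, not the spread between cultures. Myod1 and Pparg were each compared with the expression control, so these comparisons share that library, and Setdb1 knockdown was compared with the knockdown control.

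The controls already differed in the ATF4 arm. In the knockdown control 9 of 22 ATF4 arm genes were at least 2-fold lower than in the expression control, and none was higher, against 1.44% of all genes lower and 1.23% higher. All 22 lay below 0, with a median log2 ratio of -0.84 against 0.00 over all genes. In the ER arm 0 of 20 genes passed the limit, 17 lay below 0, and the median was -0.24. The genes called were the 6 stress regulators, Asns, Aars and Sars.

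With Myod1, 13 of 22 ATF4 arm genes were at least 2-fold lower than in the expression control and none was higher, against 7.55% of all genes lower and 14.0% higher. The median log2 ratio of the arm was -1.20 and all 22 genes lay below 0, while the median of all genes was 0.02. In the ER arm 3 of 20 genes were lower (Hsp90b1, Calr and Pdia4), 1 was higher (Dnajb9), and the median was -0.55. Set against the knockdown control instead, the ATF4 arm had 3 genes higher and 2 lower with a median of -0.18, and the ER arm had 2 lower with a median of -0.16, beside 15.1% of all genes higher and 7.51% lower. Scaling to equal summed FPKM moved the median of all genes to -0.26 and raised the ER arm's lower calls from 3 to 8. Phgdh, Slc7a11, Hsp90b1 and Pdia4 were at least 2-fold lower with Myod1 against both controls, a count of 4 among 42. No member was higher against both, where 11.9% of all genes were higher and 4.42% lower.

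With Pparg, 5 of 22 ATF4 arm genes and 1 of 20 ER arm genes (Calr) were at least 2-fold lower than in the expression control and none was higher, against 2.30% of all genes lower and 4.22% higher. All 42 members lay below 0, with medians of -0.85 and -0.61, where 52.0% of all genes lay below 0. Against the knockdown control the ATF4 arm had 4 genes higher and 1 lower with a median of -0.16, and the ER arm had none past the limit with a median of -0.33, beside 5.52% of all genes higher and 2.41% lower. Only Slc7a5, the light chain of the large neutral amino acid transporter, was lower against both controls and no member was higher, where 0.849% of all genes were lower and 3.34% higher.

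With Setdb1 knockdown the ATF4 arm was divided in direction against the knockdown control. Of its 22 genes 7 were at least 2-fold higher than in the knockdown control (the 6 stress regulators and Sars) and 4 were lower (Psat1, Slc7a5, Slc7a1 and Eprs), against 9.34% of all genes higher and 10.3% lower. The median was 0.17, and -0.36 over the 16 genes other than the stress regulators. In the ER arm 2 of 20 genes were lower (Hspa5 and Hsp90b1), none was higher, and the median was 0.22. Against the expression control 1 ATF4 arm gene was higher and 9 were lower with a median of -0.58, and 1 ER arm gene was higher and 2 lower with a median of -0.18, beside 8.72% of all genes higher and 11.0% lower. The genes past the limit against both controls were Ppp1r15a (higher), and Psat1, Slc7a5, Slc7a1, Eprs, Hspa5 and Hsp90b1 (lower), where 5.80% of all genes were higher and 7.56% lower against both. With trends in GC content and gene length removed, 5 of the 7 higher ATF4 arm calls against the knockdown control held. Of the 4 lower calls 1 held and Shmt2 was newly called lower, beside 6.57% of all genes higher and 8.77% lower.

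**Figure D2:**
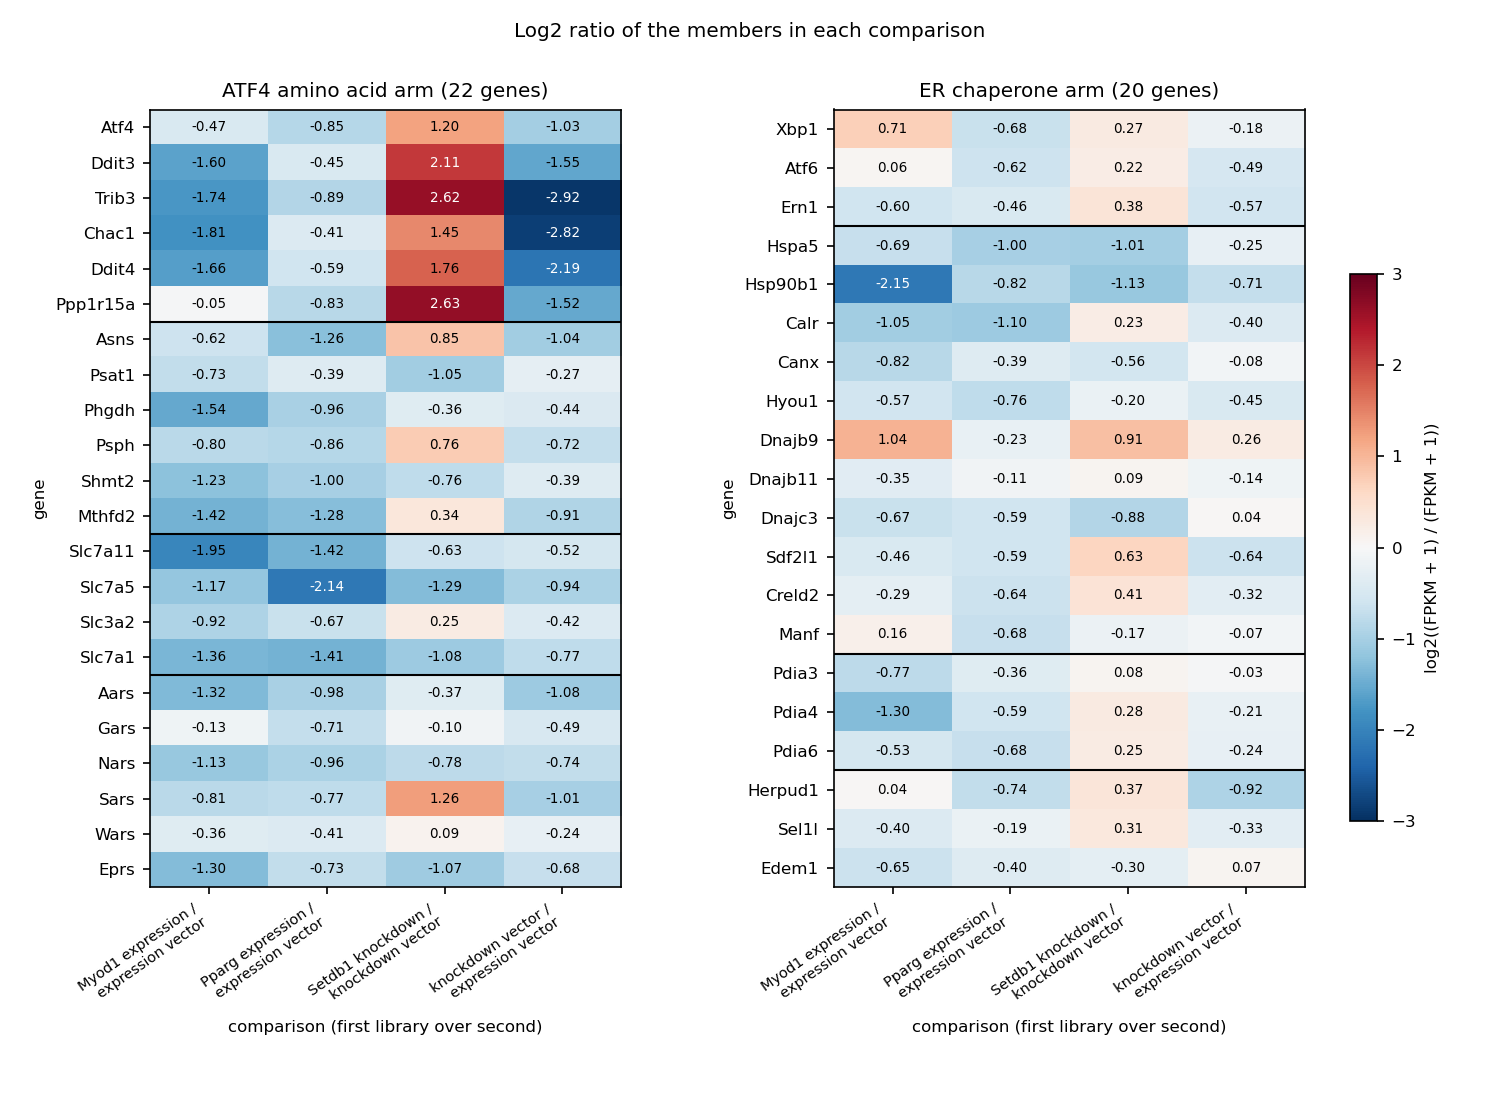
Log2 ratio of each member (rows, by arm and role) in each comparison (columns), on the log2(FPKM + 1) scale, with 1 library on each side of a ratio and the value printed in each cell. The first 6 genes of the ATF4 arm are above 1 in the Setdb1 knockdown column and below -1 in the column that sets the knockdown control against the expression control.

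In sum, the stress regulators of the ATF4 arm were high in the expression control and the Setdb1 knockdown library and low in the knockdown control. Single genes departed from this. Chac1 was lower with Setdb1 knockdown (32.4 FPKM) than with Pparg (63.9). Ppp1r15a was similar in the expression control (21.1) and with Myod1 (20.4), and Ddit3 was lowest with Myod1 (18.7). The summed FPKM of the 6 genes was 277 with Myod1, 362 with Pparg, 588 in the expression control, 566 with Setdb1 knockdown and 174 in the knockdown control. Atf4 itself (chr15:80255184-80257541, plus strand) stood at 149.5 FPKM with Myod1, 114 with Pparg, 207 in the expression control, 233 with Setdb1 knockdown and 101 in the knockdown control. It was thus 2.31 times as high with the Setdb1 hairpin as in its control (2.23 to 2.40), and the controls differed by a factor of 2.05 (1.97 to 2.13).

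Trib3 (chr2:152337422-152344032, minus strand) encodes a pseudokinase that restrains ATF4 and CHOP activity. It stood at 31.9 FPKM with Myod1, 58.5 with Pparg, 108.8 in the expression control, 88.0 with Setdb1 knockdown and 13.5 in the knockdown control. The FPKM ratio was 6.53 (5.93 to 7.20) for Setdb1 knockdown over its control, and the expression control was 8.07 times (7.34 to 8.90) as high as the knockdown control. Setdb1 knockdown therefore exceeded 1 control and lay below the other, where its log2 ratio was -0.30. Chac1, which encodes a glutathione-degrading enzyme, stood at 23.5, 63.9, 85.2, 32.4 and 11.2 FPKM in the same order of libraries. It was highest in the expression control, and its log2 ratio for Setdb1 knockdown was 1.45 against the knockdown control and -1.37 against the expression control.

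Ddit3 encodes CHOP, a C/EBP-family factor of prolonged stress, and stood at 18.7 FPKM with Myod1, 42.8 with Pparg, 58.9 in the expression control, 87.0 with Setdb1 knockdown and 19.4 in the knockdown control. The ratio of Setdb1 knockdown to its control was 4.49 (4.10 to 4.93), and the Setdb1 knockdown library was the highest of the 5. Exons of Ddit3 overlap those of Mars, which lies on the opposite strand and reached 50.1 FPKM. How strand was treated in counting is not given in the sources used here, so the level of Ddit3 is uncertain. Ddit4, an inhibitor of mTORC1 signalling, stood at 33.2, 71.0, 107.2, 79.3 and 22.7 FPKM in the same order, with the expression control again highest.

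Ppp1r15a (chr7:45522916-45526268, minus strand) encodes GADD34, the regulatory subunit that directs a phosphatase to eIF2. It stood at 20.4 FPKM with Myod1, 11.5 with Pparg, 21.1 in the expression control, 46.5 with Setdb1 knockdown and 6.70 in the knockdown control. Its level with Setdb1 knockdown was 6.95 times (6.19 to 7.81) that of its own control, and it was also past 2-fold against the expression control, at a log2 ratio of 1.10. With Myod1 its log2 ratio was -0.05 against the expression control and 1.48 against the knockdown control.

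**Figure D3:**
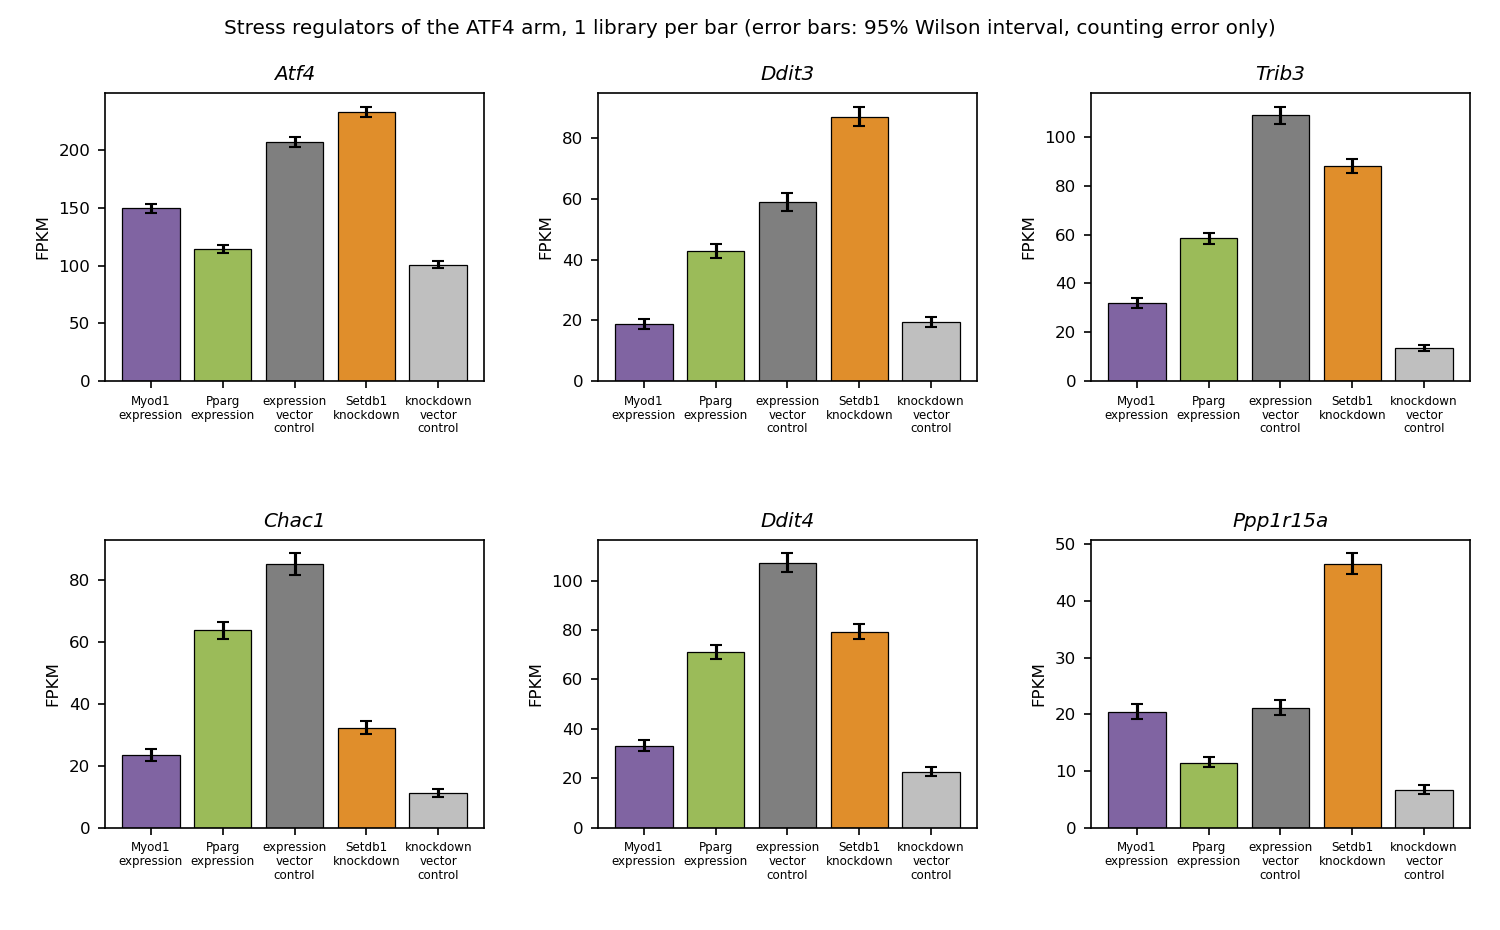
FPKM (vertical axis, from 0) of the 6 stress regulators in each of the 5 libraries, with 95% Wilson intervals on the share of reads as error bars, which cover counting error only. For each gene the knockdown control is lower than the expression control and the Setdb1 knockdown library, and for Trib3 the levels run from 13.5 to 108.8 FPKM.

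Of the 6 amino acid and one-carbon enzymes, 3 were called lower with Myod1 and 2 with Pparg, and with Setdb1 knockdown 0 were higher and 1 was lower. The shares of all genes were 7.55% and 2.30% lower, and 9.34% higher and 10.3% lower with Setdb1 knockdown, so that the last count was near the background. Against the knockdown control 1 of the 6 was lower with Myod1 and 0 with Pparg, beside 7.51% and 2.41% of all genes. Asns, the asparagine synthetase, stood at 83.4 FPKM with Myod1, 52.9 with Pparg, 128 in the expression control, 113 with Setdb1 knockdown and 61.9 in the knockdown control. It came closest to the stress regulators, although its log2 ratio for Setdb1 knockdown, 0.85, did not reach the limit. Psat1, the aminotransferase of serine synthesis, stood at 54.7, 69.4, 91.5, 35.9 and 75.5 FPKM in the same order and was lowest with Setdb1 knockdown, with a log2 ratio of -1.05. Phgdh, which opens the serine pathway, stood at 107 FPKM with Myod1, 161 with Pparg, 314 in the expression control, 180.0 with Setdb1 knockdown and 231 in the knockdown control. It was lowest with Myod1, where the expression control was 2.93 times as high (2.83 to 3.03).

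The mitochondrial one-carbon enzymes were also highest in the expression control. Shmt2, which moves a carbon from serine to folate, stood at 73.2 FPKM with Myod1, 85.9 with Pparg, 172 in the expression control, 77.3 with Setdb1 knockdown and 131 in the knockdown control. Mthfd2, the dehydrogenase of the next steps, stood at 36.6, 40.4, 99.4, 66.6 and 52.4 FPKM in the same order. Both were called lower with Myod1, at log2 ratios of -1.23 and -1.42, and Mthfd2 also with Pparg at -1.28, where Shmt2 stopped just short of the limit at -0.997. None of these calls held against the knockdown control. The log2 ratios there were -0.83 for Shmt2 and -0.50 for Mthfd2 with Myod1, and -0.37 for Mthfd2 with Pparg. Psph, the phosphatase that completes serine synthesis, ranged from 8.81 to 17.2 FPKM and was not called in the 3 comparisons, and its exons overlap those of Cct6a on the opposite strand, which reached 116 FPKM.

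The amino acid transporters were the group of the ATF4 arm with the lowest median in the Pparg and Setdb1 comparisons, -1.42 and -0.85. Slc7a5 (chr8:121881150-121907694, minus strand) stood at 85.1 FPKM with Myod1, 43.0 with Pparg, 193 in the expression control, 40.2 with Setdb1 knockdown and 99.98 in the knockdown control. It was lowest in the Pparg and Setdb1 knockdown libraries, and all 3 treated libraries lay below both controls. The expression control was 4.48 times (4.31 to 4.67) as high as the Pparg library, and the knockdown control was 2.49 times (2.38 to 2.60) as high as the Setdb1 knockdown library. Its heavy-chain partner Slc3a2 ranged from 68.9 to 132 FPKM and was not called in the 3 comparisons.

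Slc7a11 (chr3:49892526-50443614, minus strand), the cystine importer of the same heavy chain, was the member with the lowest levels. It stood at 0.320 FPKM with Myod1, 0.899 with Pparg, 4.10 in the expression control, 1.31 with Setdb1 knockdown and 2.56 in the knockdown control. The Myod1 value rests on 70 reads, and the expression control was 12.8 times (10.0 to 16.6) as high. All 3 treated libraries lay below both controls in FPKM for this gene, whose GC content is low (40.7%), and with the trends in GC content and length removed its log2 ratio for Setdb1 knockdown turned from -0.63 to 0.13. Slc7a1, the cationic amino acid transporter, stood at 18.6, 17.9, 49.4, 12.9 and 28.5 FPKM in the same order, again with the 3 treated libraries below both controls.

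Among the 6 cytosolic tRNA synthetases of the arm, which charge tRNAs with their amino acids, 3 were called lower with Myod1, 0 with Pparg, and 1 lower and 1 higher with Setdb1 knockdown, where 7.55% of all genes were lower with Myod1 and 9.34% higher and 10.3% lower with Setdb1 knockdown. None was called with Myod1 against the knockdown control. With GC content and length trends removed, the lower calls of Eprs were lost with Myod1 (-0.84) and with Setdb1 knockdown (-0.47). Aars, the alanyl enzyme, stood at 47.6 FPKM with Myod1, 60.7 with Pparg, 120.4 in the expression control, 43.5 with Setdb1 knockdown and 56.4 in the knockdown control. Eprs, the glutamyl-prolyl enzyme, stood at 10.4, 16, 27.1, 7.39 and 16.5 FPKM, and Nars, the asparaginyl enzyme, at 66.8, 75.5, 148, 50.9 and 88.2 FPKM. All 3 were lowest in the Setdb1 knockdown library and highest in the expression control. Sars, the seryl enzyme, stood at 84.1, 86.5, 148, 177 and 73.1 FPKM and was instead highest with Setdb1 knockdown, at 2.42 times its control (2.35 to 2.49). Gars (182 to 299.8 FPKM) and Wars (70.5 to 94.3 FPKM) were not called in the 3 comparisons.

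Cytosolic and mitochondrial synthetases on a wider list had different medians in the comparisons with the expression control, a difference that was not tested. Of the 20 cytosolic enzymes, members included, 19 lay below 0 with Myod1 and 20 with Pparg, at medians of -0.49 and -0.63, and 7 and 2 were called lower, where 7.55% and 2.30% of all genes were. Against the knockdown control the medians were -0.23 and -0.18 and none of the 20 was called. Of the 17 mitochondrial enzymes 8 and 4 lay below 0, at medians of 0.10 and 0.14, and none was called in either. With Setdb1 knockdown 14 of 20 and 10 of 17 lay below 0, at medians of -0.11 and -0.16. The C/EBP-ATF core was in the promoters of 3 of 8 matched genes on the list of other cytosolic synthetases. It was in 0 of 14 mitochondrial ones, near the 4.51% of all genes with a promoter. Any part of this element in the medians was not tested.

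In the ER arm the sensors and factors stayed under the limit in all 3 comparisons. Xbp1 (chr11:5520659-5525893, plus strand), the factor made active by IRE1-dependent splicing, stood at 68.5 FPKM with Myod1, 25.6 with Pparg, 41.5 in the expression control, 44.3 with Setdb1 knockdown and 36.6 in the knockdown control. It was highest with Myod1, at a log2 ratio of 0.71, and lowest with Pparg, at -0.68. Atf6 (7.17 to 12.2 FPKM) was likewise highest with Myod1, and Ern1, which encodes IRE1, was highest in the expression control (5.25 to 8.48 FPKM over the 5 libraries).

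The ER chaperones of the HSP70 and HSP90 families, Hspa5 and Hsp90b1, were the 2 of 20 ER arm genes (10%) called lower with Setdb1 knockdown, a share near the 10.3% of all genes. The rest of the arm was mixed in direction. In that comparison 13 of the 20 genes lay above 0 and 7 below, with none above 0 past the limit. Of the 11 chaperones and co-chaperones 5 lay above 0 and 6 below, with a median of -0.17. Those above were Calr, Dnajb11, Creld2, Sdf2l1 and Dnajb9, at 0.09 (Dnajb11) to 0.91 (Dnajb9). With the trends in GC content and gene length removed, both lower calls were lost (-0.85 and -0.87). Against the expression control 14 of the 20 ER arm genes lay below 0, where 47.9% of all genes did. Hspa5 (chr2:34771970-34777547, plus strand) encodes BiP, the chaperone that also holds the stress sensors inactive. It stood at 168 FPKM with Myod1, 136 with Pparg, 272 in the expression control, 113 with Setdb1 knockdown and 229 in the knockdown control. Its lowest level was thus in the Setdb1 knockdown library, with a ratio of 0.494 (0.481 to 0.507) to the control. With Pparg it stopped just short of the limit, at a log2 ratio of -0.999.

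Hsp90b1 (chr10:86690209-86705509, minus strand) encodes GRP94, the ER member of the HSP90 family. It stood at 32.5 FPKM with Myod1, 83.1 with Pparg, 148 in the expression control, 40.6 with Setdb1 knockdown and 90.2 in the knockdown control. The expression control was 4.55 times (4.34 to 4.78) as high as the Myod1 library, the largest difference of the ER arm in the 3 comparisons. Calr, the calcium-binding lectin chaperone calreticulin, stood at 229, 220.3, 473, 418 and 357 FPKM in the same order. It was called lower with Myod1 (-1.05) and with Pparg (-1.10) and stood at 0.23 with Setdb1 knockdown, while its membrane-bound relative Canx was not called and had a log2 ratio of -0.56 there.

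Dnajb9 (chr12:44205559-44210326, minus strand), an HSP40 co-chaperone that returns IRE1 to its BiP-bound state, ran the other way. It stood at 15.4 FPKM with Myod1, 5.79 with Pparg, 6.99 in the expression control, 16.9 with Setdb1 knockdown and 8.54 in the knockdown control. The Myod1 library was 2.20 times (1.91 to 2.54) as high as its control, and the Setdb1 knockdown library 1.98 times (1.75 to 2.25). The call with Myod1 did not hold when libraries were scaled to equal summed FPKM (log2 ratio 0.67) or to an equal 75th percentile (0.86), nor against the knockdown control (0.78). With Setdb1 knockdown it passed the limit against the expression control (1.16) and not against its own. The other 7 chaperones and co-chaperones (Hyou1, Dnajb11, Dnajc3, Sdf2l1, Creld2, Manf and Canx) stayed under the limit in all 3 comparisons, from -0.88 for Dnajc3 with Setdb1 knockdown to 0.63 for Sdf2l1 in the same comparison. Exons of Manf overlap those of Rbm15b on the same strand, which reached 16.8 FPKM.

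Of the disulfide isomerases, which form and shuffle disulfide bonds in the ER, Pdia4 stood at 82.9 FPKM with Myod1, 136 with Pparg, 205 in the expression control, 215 with Setdb1 knockdown and 177 in the knockdown control. It was low with Myod1, at a log2 ratio of -1.30. Pdia3 and Pdia6 were not called in the 3 comparisons, and all 3 isomerases lay between 0.08 and 0.28 with Setdb1 knockdown. The degradation factors Herpud1, Sel1l and Edem1 were not called either. Herpud1, an adaptor of the ER ubiquitin ligase, stood at 74.6, 43.2, 72.7, 49.3 and 37.8 FPKM in the same order and was high in the Myod1 library and the expression control. Scaling to equal summed FPKM turned the sign of the small Myod1 log2 ratios of Herpud1 (0.04 to -0.35), Atf6 (0.06 to -0.30) and Manf (0.16 to -0.23).

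**Figure D4:**
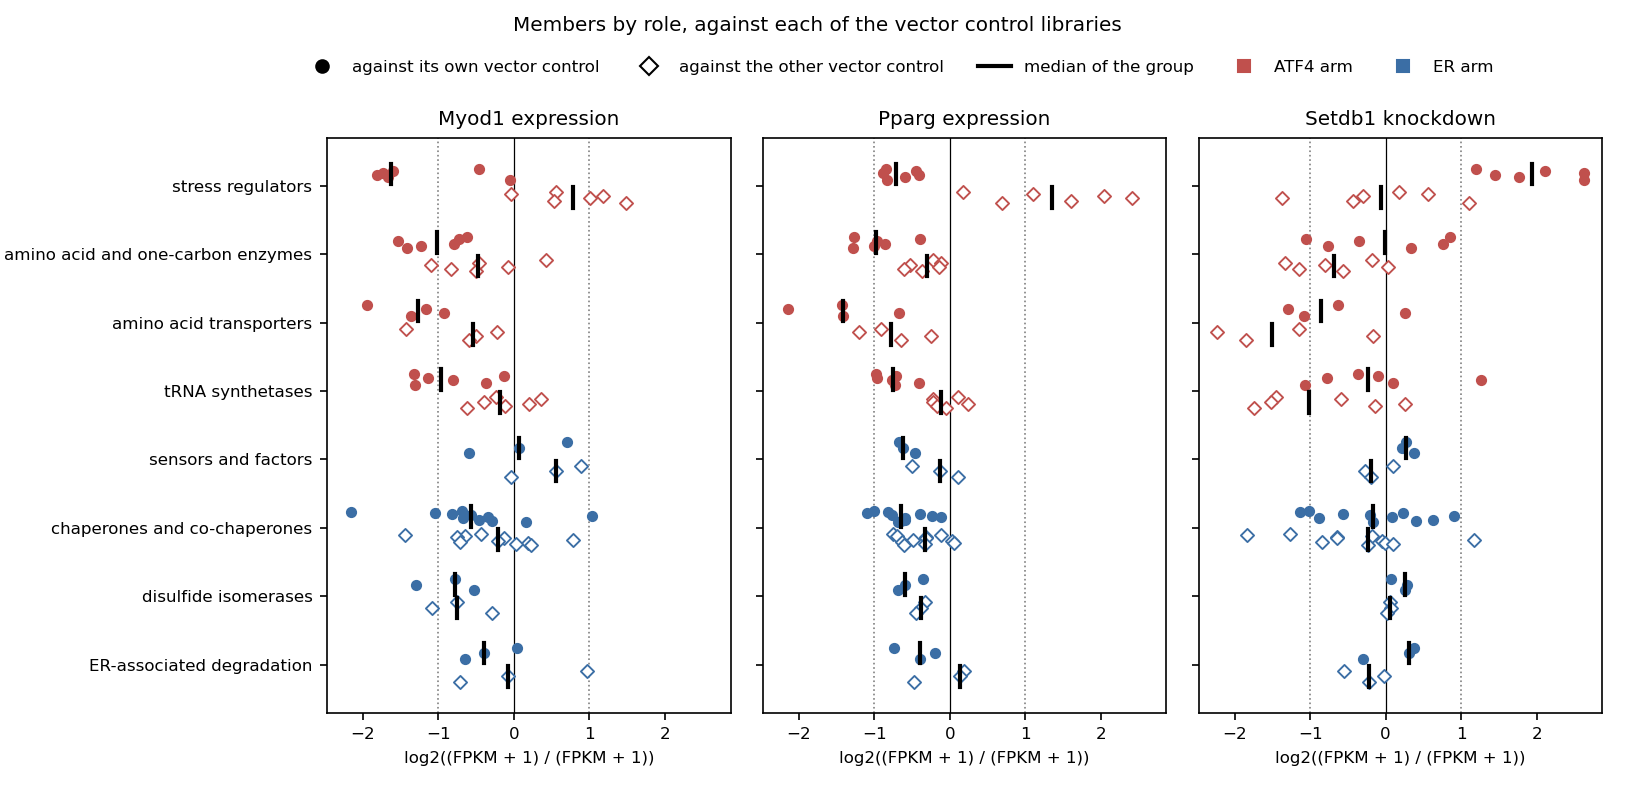
Log2 ratio (horizontal axis, log2(FPKM + 1) scale) of each member by role, with filled circles against the library's own vector control, open diamonds against the other vector control, bars at the group medians and dotted lines at the 2-fold limit. The median of the stress regulators is -1.63 with Myod1 and 1.94 with Setdb1 knockdown against their own controls, and 0.78 and -0.07 against the other control.

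The direction of the stress regulators thus depended on the control. With Myod1 their median log2 ratio was -1.63 against the expression control (4 of 6 lower) and 0.78 against the knockdown control (3 of 6 higher). With Pparg it was -0.71 (none called) and 1.35 (4 of 6 higher). With Setdb1 knockdown it was 1.94 against the knockdown control (6 of 6 higher) and -0.07 against the expression control (1 higher and 1 lower). Of all genes, 7.55% were lower with Myod1 and 15.1% higher against the other control, 5.52% were higher with Pparg against the other control, and 9.34% were higher with Setdb1 knockdown. Against the expression control 8.72% were higher and 11.0% lower with Setdb1 knockdown, near the 1 and 1 of 6. The transporters kept a median below 0 against either control, at -1.27 and -0.55 with Myod1, -1.42 and -0.77 with Pparg, and -0.85 and -1.50 with Setdb1 knockdown. So did the other groups of the ATF4 arm. In the same order the enzymes had -1.01 and -0.48, -0.98 and -0.30, and -0.01 and -0.68. The tRNA synthetases had -0.97 and -0.18, -0.75 and -0.11, and -0.23 and -1.02.

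Members with and without their arm's promoter element can be set side by side. In the ER arm, the 7 genes with an ER stress response element had a median log2 ratio of -0.56 with Setdb1 knockdown, with 2 called lower, and the 10 genes without one had a median of 0.29, with none called, where 10.3% of all genes were lower and 9.34% higher. The median GC content was 45.6% and 49.1%, and with the trends in GC content and length removed the medians were -0.19 and 0.21 and neither lower call held. With Myod1 the medians were -0.69 and -0.43, and with Pparg -0.68 and -0.43. In the ATF4 arm, the 6 genes with a C/EBP-ATF core and the 13 without had medians of -1.53 and -1.23 with Myod1, -0.93 and -0.83 with Pparg, and 0.38 and 0.34 with Setdb1 knockdown. With the trends removed the last pair was 0.50 and 0.20. These splits are descriptions of few genes, and no test was made.

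The GC content of transcripts moved with the log2 ratios over all genes in each comparison, and over the members in some. Across 12679 genes, which are not independent replicates, Spearman's rho with GC content was 0.22 with Myod1, 0.19 with Pparg, 0.39 with Setdb1 knockdown and -0.27 between the controls. Across the 42 members it was 0.35 with Setdb1 knockdown and -0.45 between the controls, but -0.05 with Myod1 and -0.20 with Pparg. This depended on the control. Against the knockdown control the members had 0.41 with Myod1 and 0.30 with Pparg, beside 0.33 and 0.34 over all genes. With Setdb1 knockdown against the expression control they had 0.03, beside 0.28 over all genes. The 7 members called higher with Setdb1 knockdown had a median GC content of 55.7% and the 6 called lower 47.0%, beside 50.1% over all genes. With the trends in GC content and gene length removed, 6 of the 13 Setdb1 calls held, namely Ddit3 (2.09), Trib3 (2.07), Ddit4 (1.24), Ppp1r15a (2.29), Sars (1.17) and Slc7a5 (-1.64). The calls of Atf4 (0.88), Chac1 (just under the limit), Psat1 (-0.99), Slc7a1 (-0.97), Eprs (-0.47), Hspa5 (-0.85) and Hsp90b1 (-0.87) did not, and Shmt2 (-1.14) and Dnajb9 (1.23) then passed the limit.

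**Figure D5:**
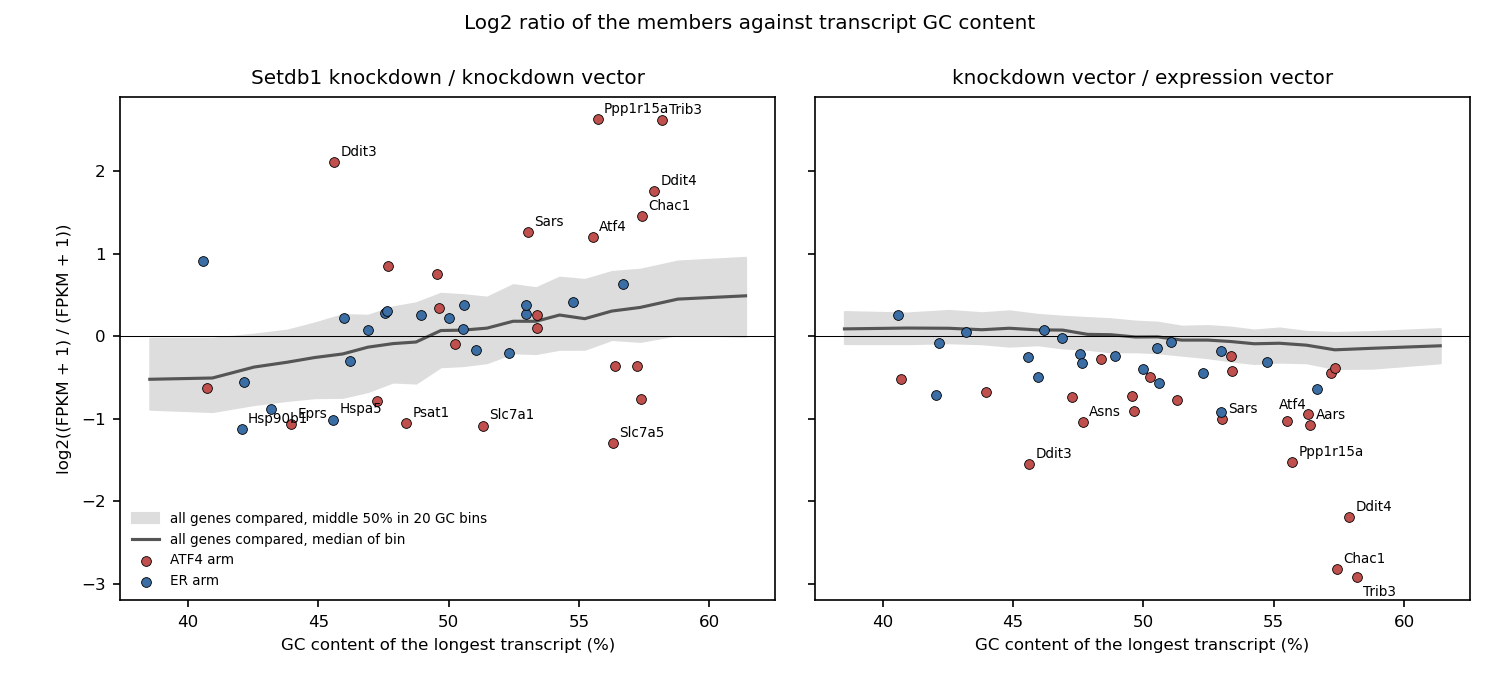
Log2 ratio (vertical axis, log2(FPKM + 1) scale) against the GC content in percent of each gene's longest transcript (horizontal axis) for Setdb1 knockdown over its control and for the knockdown control over the expression control, with the members as points and the median and middle 50% of all genes in 20 bins as line and band. Ddit3, Trib3 and Ppp1r15a lie more than 2 log2 units above 0 in the Setdb1 panel, while the line for all genes rises with GC content.

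Other genes of the pathways were taken from lists of 117 symbols, of which 113 were compared. Of 25 further ATF4 pathway genes, 9 were higher and 1 lower with Setdb1 knockdown, 4 higher and 5 lower with Myod1, 3 higher and 6 lower with Pparg, and 0 higher and 10 lower in the knockdown control against the expression control. The medians were 0.48, -0.31, -0.28 and -0.80. Of all genes, 9.34% were higher and 10.3% lower with Setdb1 knockdown, 14.0% and 7.55% with Myod1, and 4.22% and 2.30% with Pparg, so the 4 of 25 higher with Myod1 (16%) were near the background. Against the other control all 3 medians turned sign, to -0.41 with Setdb1 knockdown (6 higher, 4 lower), 0.37 with Myod1 (9 higher, 1 lower) and 0.52 with Pparg (7 higher, 0 lower). The shares of all genes were then 8.72% higher and 11.0% lower, 15.1% and 7.51%, and 5.52% and 2.41%, and between the controls 1.23% and 1.44%. The highest with Setdb1 knockdown were Atf3 (3.51), a stress-induced factor of the ATF family, Nupr1 (2.93), a stress-induced chromatin protein, and Gadd45a (2.69), a growth arrest gene. Against the expression control their log2 ratios were 1.38, 0.78 and 1.89. Atf3 stood at 15.3 FPKM with Myod1, 35.4 with Pparg, 19.2 in the expression control, 51.4 with Setdb1 knockdown and 3.58 in the knockdown control, so that the knockdown control was again the lowest library. Among the lowest over all lists with Setdb1 knockdown were Hspa13 (-1.47) and Ssr3 (-1.34), at -1.84 and -0.85 against the expression control.

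With Myod1 the lowest on these lists were Ero1l (-2.52), the oxidase that recharges the disulfide isomerases, Slc1a4 (-2.09), a neutral amino acid transporter, and Mthfd1l (-1.94), a mitochondrial one-carbon enzyme. Ero1l stood at 17.0 FPKM with Myod1, 21.4 with Pparg, 102.0 in the expression control, 25.8 with Setdb1 knockdown and 22.5 in the knockdown control. The expression control alone was high for this gene. Against the knockdown control the log2 ratios with Myod1 were -0.39 for Ero1l, -0.20 for Slc1a4 and -1.47 for Mthfd1l. The highest with Myod1 were Fgf21, a stress-induced hormone, with 115 reads against 0 and thus at least 39.8-fold higher against a floor of 3 reads, Gadd45a (2.06) and Wfs1 (1.88), an ER membrane protein. With Pparg the lowest were Ero1l (-2.20), Aldh18a1 (-1.55), a proline synthesis enzyme, and Gpt2 (-1.46), an alanine aminotransferase. None of these 3 calls held against the knockdown control, where the log2 ratios were -0.07, -0.05 and, with a turned sign, 0.28. The highest with Pparg were Cbs, with 110 reads against 3 and a ratio of 31.2 (10.4 to 154), Cebpb (1.11), a C/EBP partner of ATF4, and Fgf21, with 20 reads against 0 and at least 5.68-fold higher against the floor. Cbs had 17 reads in the knockdown control, and its log2 ratio was 1.36 against the expression control and 1.06 against the knockdown control. Against the latter Cebpb was at 2.27 and Fgf21 at 1.07.

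Among 51 other ER folding and degradation genes, 1 was higher and 8 were lower with Myod1, 0 and 2 with Pparg, and 5 and 5 with Setdb1 knockdown, with medians of -0.44, -0.27 and -0.04. With Myod1 the 8 of 51 lower (15.7%) stood beside 7.55% of all genes, and the 1 higher beside 14.0%. The 5 and 5 with Setdb1 knockdown (9.80% each) and the 2 lower with Pparg (3.92%) were near the 9.34% and 10.3%, and the 2.30%, of all genes, and no gene was called with Pparg against the other control. Between the controls 1 of the 51, Ero1l, was lower, near the 1.44% of all genes, and the median was -0.07. Of the 6 genes for the eIF2 kinases, eIF2 alpha and the constitutive phosphatase subunit, Eif2ak2, the kinase PKR, was lower with Myod1 (-1.21) and Eif2s1, eIF2 alpha itself, was lower with Setdb1 knockdown (-1.33), both named after their values were seen. Each is 1 call of 6, beside 7.55% and 10.3% of all genes lower. The call of Eif2ak2 held against the knockdown control (-1.11). The call of Eif2s1 did not hold against the expression control (-0.66), and the knockdown control was the highest library for this gene (40.8 FPKM). None of the 6 was called with Pparg or between the controls.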

How the data were processed

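The authors deposited 1 table of FPKM values for 5 libraries, which per the file headers also gives each gene's identifier, symbol, position and length. The submitters' processing notes name CASAVA, HISAT2, featureCounts 1.5.0-p3 and the build GRCm38, with no role or order. Per the labels' protocols, total RNA came from a TRIzol extraction and the NEBNext Ultra kit was used for library preparation. FPKM times gene length was a whole multiple of 1 step in 100% of the values above 0 in each library (within 0.01 reads), which gave back 16214802 to 18300670 reads per library. Summed over genes, the deposited FPKM reach 420545 in the Myod1 library and 297582 to 326960 in the rest. The library factor that divides the FPKM was not the recovered reads alone. It was 0.859 (Myod1), 1.10 (Pparg), 0.976 (expression control), 1.06 (Setdb1 knockdown) and 1.03 (knockdown control) times those reads. The basis of this factor is not given in the sources used here.

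The log2 ratio is log2(FPKM + 1) of one library minus that of another, over genes that reach an FPKM of 1 in some library, with a limit of 2-fold. No test was run, since each condition has 1 library. Wilson intervals on shares of reads and exact binomial intervals on ratios are at 95% and cover counting error only. The steps were tested on simulated data. GC content came from the longest GENCODE M21 transcript (98.7% of genes compared), and its trend and that of length were removed by medians in 20 bins each, in 5 rounds. Members, lists, limits and motifs were chosen with earlier results of these data known. All 42 members, the targeted genes and, per comparison, up to 3 highest and 3 lowest called genes of the other pathway lists are named. A few items that this rule or the motif search would name are not reported here. Of the other list entries 2 (Vimp and Selk) had no row under that symbol. Alternatives were another pseudocount, filter, limit, scaling or control. Protein sequences were not analysed here. Python 3.11.15, pandas 2.3.3, NumPy 2.4.6, SciPy 1.17.1 and matplotlib 3.10.9 were used.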

Additional observations from a re-analysis of the deposited data

How the results depend on the processing

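No filter on low values, a filter on mean FPKM, and centring on the median of all genes left every count and median of the arms within the limits set for a change. The other control moved most. Against it, the ATF4 arm had 3 genes higher and 2 lower (median -0.18) with Myod1, 4 higher and 1 lower (-0.16) with Pparg, and 1 higher and 9 lower (-0.58, a turned sign) with Setdb1 knockdown. The ER arm had 0 higher (median -0.16) with Myod1, 0 lower (-0.33) with Pparg and 1 higher (-0.18, a turned sign) with Setdb1 knockdown. The sign turned for 10 of 42 members with Myod1, 13 with Pparg and 14 with Setdb1 knockdown (1902, 3070 and 1902 of 12842 genes), and for 5, 6 and 3 of the 6 stress regulators. The called ones among these were, with Myod1, Trib3 (1.18), Chac1 (1.01) and Ddit4 (0.53), and with Setdb1 knockdown Trib3 (-0.30), Chac1 (-1.37) and Ddit4 (-0.43). None called with Pparg turned, but uncalled stress regulators did, among them Chac1 (-0.41 to 2.41) and Trib3 (-0.89 to 2.04). Against both controls at once, Myod1 left 2 ATF4 arm genes lower and 0 ER arm genes higher, Pparg 1 and 0 lower, and Setdb1 knockdown 1 ATF4 arm gene higher. At a 1.5-fold limit the ER arm had 2 higher and 9 lower with Myod1, 13 lower with Pparg and 2 higher with Setdb1 knockdown, and the ATF4 arm 18 lower with Pparg and 7 lower with Setdb1 knockdown. Of all genes 24.4% were then higher and 19.3% lower with Myod1, 8.43% lower with Pparg, and 21.8% higher and 21.9% lower with Setdb1 knockdown. A pseudocount of 0.1 gave 2 ER arm genes lower with Pparg (4.66% of all genes). Scaling to equal summed FPKM shifted the median of all genes with Myod1 to -0.26 (1238 higher and 1907 lower, against 1798 and 970), and scaling to the 75th percentile to -0.11 (1489 and 1334). With Myod1 the ATF4 and ER medians were then -1.59 and -0.92 (0 ER genes higher, 8 lower) and -1.38 and -0.74 (0 higher). Summed FPKM gave -0.76 and -0.51 with Pparg (0 ER genes lower) and 0.095 for the ATF4 arm with Setdb1 knockdown, where the 75th percentile gave 0.082 and 0.14. Removing GC content and length trends gave 8 ATF4 arm genes lower with Pparg (-0.93; 2.16% of all genes). With Setdb1 knockdown it gave 2 lower (0.083) in the ATF4 arm, and 1 higher and 0 lower (0.089) in the ER arm, beside 6.57% of all genes higher and 8.77% lower. The cause of these moves was not tested. No paired analysis was possible because each condition has 1 library, and for the same reason no replicate could be left out. Depth limits Slc7a11 most, with 70 reads in the Myod1 library.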
